A study of Mus musculus with 8 samples.

Results

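The aryl hydrocarbon receptor (AHR) pathway was described here across 9 genes that were selected by symbol from the 38392 genes of the deposited table. They were the receptor Ahr, its dimerisation partner Arnt, the HSP90 co-chaperone Ptges3 (p23), the repressor Ahrr, the feedback enzyme Tiparp and the target enzymes Cyp1a1, Cyp1a2, Cyp1b1 and Nqo1. Every member had 1 row in the table. Messenger RNA was sequenced from cells sorted as eosinophils out of 2 tissues of wildtype C57/BL6 mice, with 4 libraries from bone marrow (BM_1, BM_3, BM_4 and BM_5) and 4 from small intestine (SI_6, SI_7, SI_10 and SI_11). The mice were female in both tissues, and their ages are not in the labels. Small intestine cells were sorted as CD11b+ MHC-II- SiglecF+ SSChi after warm enzymatic digestion of the tissue and magnetic enrichment on CD11b, and bone marrow cells as CD11b+ Ly6G- Ly6C- SiglecF+ SSChi after flushing of the bone, so tissue and handling cannot be told apart. Whole reads were recovered from the deposited values and totalled 11508002 to 21289164 per library, and 19713 to 33346 genes had at least 1 read.

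AHR is a ligand-activated transcription factor of the bHLH-PAS family. Without ligand it is held in the cytosol by a complex that includes HSP90 and the co-chaperone p23 encoded by Ptges3. Dietary indoles, tryptophan metabolites and aromatic pollutants bind it, and it then enters the nucleus, pairs with ARNT and binds response elements with the core GCGTG. The induced genes include enzymes that oxidise the ligands, such as the cytochromes P450 of family 1, and 2 brakes. AHRR competes for ARNT and for the response element, and TIPARP, an ADP-ribosyltransferase, modifies AHR and promotes its loss. In the intestine the receptor is known for its part in barrier-resident immune cells.

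The promoter windows of 6 members are shown because they hold the core of the AHR response element. They are the 250 bases before the RefSeq transcription start (GRCm38.p6), written 5′ to 3′ on the strand of the gene, and capitals mark GCGTG or its reverse complement CACGC. The promoter table matched 8 of the 9 members, all but Ahr.
Ahrr, chr13:74292332-74292581, - strand: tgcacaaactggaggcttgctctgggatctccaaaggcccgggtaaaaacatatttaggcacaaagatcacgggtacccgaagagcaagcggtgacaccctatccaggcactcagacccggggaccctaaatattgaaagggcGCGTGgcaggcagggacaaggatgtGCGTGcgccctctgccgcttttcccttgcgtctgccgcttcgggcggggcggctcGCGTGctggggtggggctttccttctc
Tiparp, chr3:65528197-65528446, + strand: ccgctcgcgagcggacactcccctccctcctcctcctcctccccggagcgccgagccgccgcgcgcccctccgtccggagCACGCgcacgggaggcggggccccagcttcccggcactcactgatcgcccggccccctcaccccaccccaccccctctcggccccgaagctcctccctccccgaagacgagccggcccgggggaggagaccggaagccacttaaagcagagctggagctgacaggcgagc
Cyp1b1, chr17:79715062-79715311, - strand: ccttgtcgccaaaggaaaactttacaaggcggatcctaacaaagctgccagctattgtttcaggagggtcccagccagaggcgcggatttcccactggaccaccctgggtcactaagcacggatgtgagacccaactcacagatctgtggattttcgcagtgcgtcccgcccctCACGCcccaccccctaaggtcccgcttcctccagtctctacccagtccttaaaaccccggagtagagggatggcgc
Cyp1a1, chr9:57697363-57697612, + strand: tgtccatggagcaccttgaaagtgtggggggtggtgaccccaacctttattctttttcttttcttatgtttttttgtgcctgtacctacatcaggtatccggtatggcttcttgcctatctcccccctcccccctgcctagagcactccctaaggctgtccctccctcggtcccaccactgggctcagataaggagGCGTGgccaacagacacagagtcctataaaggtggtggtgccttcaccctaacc
Arnt, chr3:95434140-95434389, + strand: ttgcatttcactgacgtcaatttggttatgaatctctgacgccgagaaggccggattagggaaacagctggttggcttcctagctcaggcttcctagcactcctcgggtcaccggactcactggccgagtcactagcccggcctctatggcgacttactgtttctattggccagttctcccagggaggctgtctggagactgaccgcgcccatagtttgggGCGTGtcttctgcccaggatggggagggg
Ptges3, chr10:128058732-128058981, + strand: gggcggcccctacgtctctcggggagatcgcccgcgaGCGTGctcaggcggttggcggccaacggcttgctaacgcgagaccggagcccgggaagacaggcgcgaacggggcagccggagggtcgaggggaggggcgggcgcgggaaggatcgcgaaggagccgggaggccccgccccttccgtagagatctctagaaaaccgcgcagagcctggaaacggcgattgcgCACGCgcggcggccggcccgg

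The core was found in 6 of these 8 windows, on either strand, and in 28.2% of the 32851 windows of the same length in the table. Ahrr held 3 matches, all on the strand of the gene, and 2.77% of all windows held 3 or more. Its match nearest the start, at bases -27 to -23, also fitted the longer form TNGCGTG, which contains the core and occurred in 4.10% of all windows. Ptges3 held 2 matches, and Tiparp, Cyp1b1, Cyp1a1 and Arnt held 1 each. The windows of Nqo1 and Cyp1a2 held none. The element TGACNNNGC, through which NRF2 acts on antioxidant genes, matched 2 times in the Arnt window and in no other member, against 10.2% of all windows with at least 1 match. ACGTG, the other core used by hypoxia-inducible factors, which also bind GCGTG, matched in none of the 8 windows and in 16.6% of all windows. The map of these matches shows that they were not restricted to the inducible genes, since the partner and the chaperone also held the core. A match describes letters in the window and not binding.

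**Figure D1:**
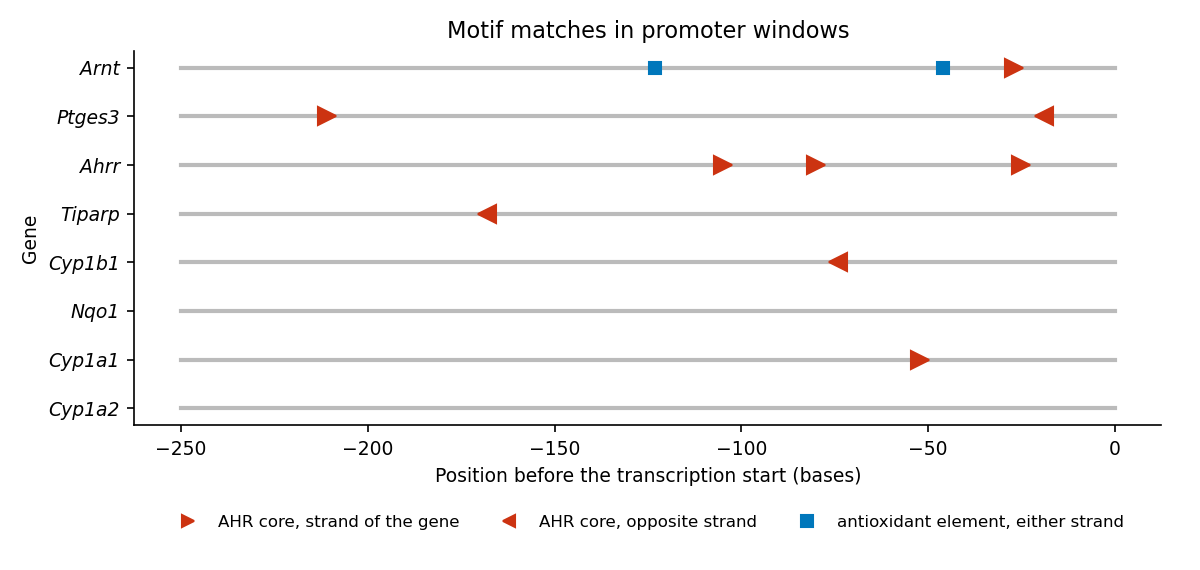
Matches to the AHR core (triangles, pointing right on the strand of the gene and left on the opposite strand) and to the antioxidant element (squares) in the promoter windows of 8 members. The x axis is the position in bases before the transcription start. Ahrr shows 3 AHR cores, and the lines of Nqo1 and Cyp1a2 are empty.

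Before the members were compared, the labelled cell type was checked against marker genes. The 6 eosinophil markers summed to normalised counts of 33391 to 46078 in the small intestine libraries and 2420 to 3680 in the bone marrow libraries. In bone marrow the granule genes Prg2 (1831 ± 396, SD, n = 4) and Epx (350 ± 40.2) were present, and Siglecf, the sorted surface marker, stood at 580 ± 66.0, while the eotaxin receptor gene Ccr3 (70.9 ± 25.7) and Il5ra (11.04 ± 5.31) were low. The sums hide opposite directions, since 4 of the 6 were called higher in small intestine and 2 lower, Prg2 (147 ± 40.7 there) and Epx (20.6 ± 9.06). The 12 neutrophil precursor markers, which include Mpo and Elane, summed to 502737 to 650189 in the bone marrow libraries and to 754 to 1056 in the small intestine libraries. The bone marrow libraries thus held far more neutrophil precursor transcript than eosinophil marker transcript and are called bone marrow libraries below. In the small intestine libraries all 10 epithelial markers were called higher, with sums of 5579 (SI_10), 6249 (SI_11), 17321 (SI_7) and 38173 (SI_6) against 194 to 222 in bone marrow. The test behind these calls, described below, called 22.0% of all genes higher and 12.9% lower. All these eosinophil and epithelial markers had at least 10 mean reads, a class of which 39.2% were called higher and 33.7% lower when tested alone. In bulk RNA, fewer cells of a type and less RNA per cell cannot be told apart. The part of these transcripts in the differences below was not tested.

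Transcripts of the AHR pathway were far more abundant in the small intestine libraries. Of the 9 members, 7 were called higher in small intestine, 0 were called lower, and 2 (Ptges3 and Cyp1a2) did not pass the test. The test was limma on the deposited log2-like values, with Benjamini-Hochberg adjustment over all 38392 genes and a threshold of 0.05, and it called 22.0% of all genes higher and 12.9% lower. Among the 16215 genes with at least 10 mean reads, tested alone, 39.2% were called higher and 33.7% lower, and of the 7 members in this class 6 were called higher and 1, Ptges3, lower. Limma voom on the recovered reads called 7 members higher and 1 lower, Ptges3, against 26.1% and 13.8% of all genes. At an unadjusted p under 0.05, limma on the deposited values gave 8 members higher and 0 lower, with Cyp1a2 added. The share of all genes at that unadjusted threshold was not counted, so nothing is read from the 8. The median difference of the members was 4.96 on the log2 scale, against 0.37 over all genes. The values of every small intestine library lay above those of every bone marrow library for 7 members, which was so for 20.3% of all genes. The study had itself picked Ahr, Ahrr, Tiparp, Cyp1a1, Cyp1b1 and Nqo1 on these samples, so the count is not independent evidence of direction.

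**Figure D2:**
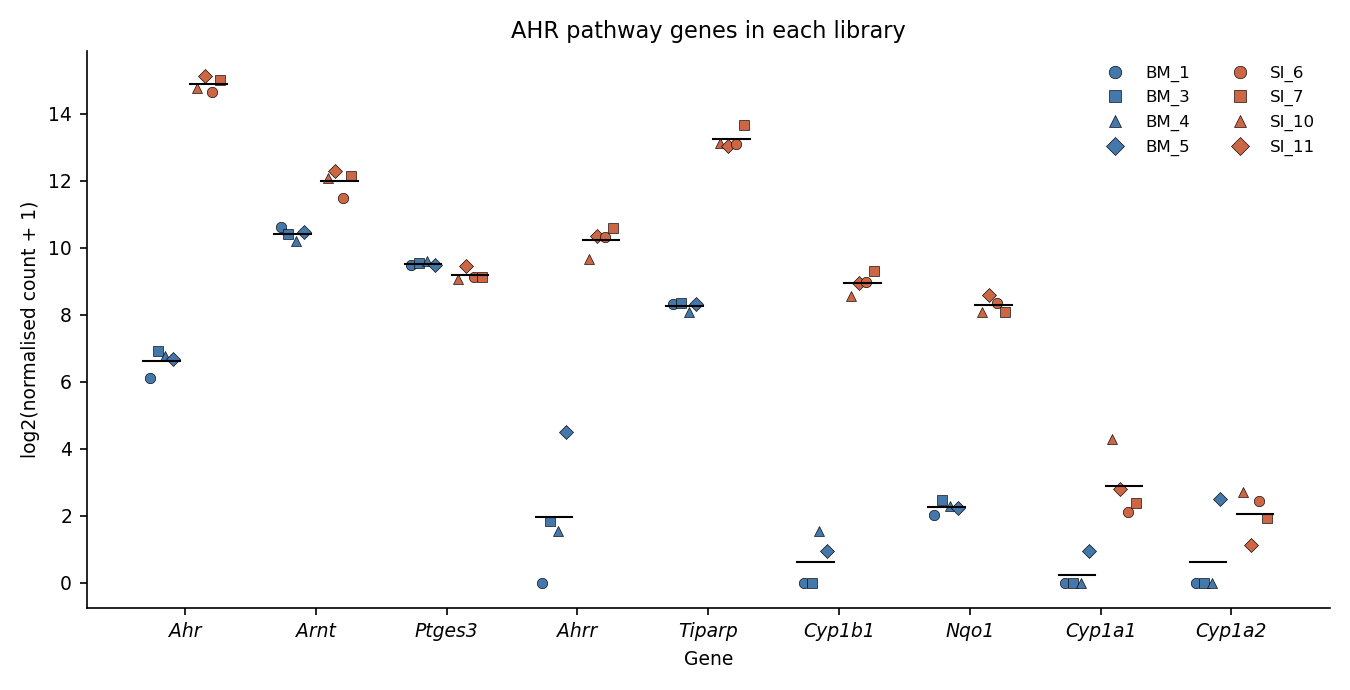
Normalised counts of the 9 members in each library, on the scale log2(normalised count + 1). Each point is 1 library (blue, bone marrow; orange, small intestine) and the black lines are the means of 4 libraries. Small intestine lies above bone marrow without overlap for 7 genes, Ptges3 lies below, and Cyp1a2 overlaps.

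Ahr itself, on chr12:35497974-35535038 (GRCm38, GENCODE M21, minus strand), had the largest difference of the 9 on the deposited scale, which understates genes with few reads. With limma voom on the recovered reads, Cyp1b1 (9.04) and Ahrr (8.79) exceeded Ahr (8.27). Its normalised count was 68.2 in BM_1, 120 in BM_3, 108 in BM_4 and 101 in BM_5. In the small intestine libraries it was 25737 in SI_6, 33018 in SI_7, 28206 in SI_10 and 35752 in SI_11. The lowest small intestine library stood 214-fold above the highest bone marrow library. The means were 99.4 ± 22.2 and 30678 ± 4537 (SD, n = 4 each), a 309-fold difference, and the log2 difference was 8.23 ± 0.23 (SE, limma adjusted p = 2.55e-07). Only 55 of the 38392 genes had a larger rise in this fit. The lowest small intestine value belonged to SI_6, the library with the highest epithelial sum, whose part in this value was not tested. The Ahr difference lay between 8.07 and 8.33 when each library was left out in turn. It was 7.33 with each library centred on its median over all genes and 7.75 with quantile normalisation. A lincRNA gene on the opposite strand, Gm48236, overlaps the start of Ahr and has no values among the 38392 genes. Reads from the shared stretch cannot be assigned without strand.

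The partner Arnt and the chaperone Ptges3, both with known roles beyond AHR, differed far less. Arnt (chr3:95434388-95497240, plus strand) also pairs with the hypoxia-inducible factors. Its normalised count was 1560, 1353, 1169 and 1404 in BM_1, BM_3, BM_4 and BM_5, and 2889, 4472, 4359 and 4971 in SI_6, SI_7, SI_10 and SI_11. The groups did not overlap, and SI_6 was the lowest of the small intestine libraries. The mean was 3.04-fold higher in small intestine, with a log2 difference of 1.58 ± 0.23 (limma adjusted p = 0.00079). Centring each library on its median over all genes lowered this difference to 0.68 (limma adjusted p = 0.258), and the call was lost. A processed pseudogene on the same strand, Gm42672, lies within Arnt and rose from a mean of 110 to 807 normalised counts, and how reads were divided between them was not tested.

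Ptges3 (chr10:128058954-128077272, plus strand) had the most even values of all members. Its normalised count was 713, 743, 769 and 715 in BM_1, BM_3, BM_4 and BM_5, against 561, 553, 538 and 701 in SI_6, SI_7, SI_10 and SI_11. Every small intestine library lay below every bone marrow library, as for 13.9% of all genes. The bone marrow mean was 1.25 times the small intestine mean, and the log2 difference of -0.33 ± 0.18 was not called (limma adjusted p = 0.200). The call depended on the scaling and on the filter. It was made with median centring over all genes (-1.23, limma adjusted p = 0.0282) and with only genes of at least 10 mean reads (-0.33, limma adjusted p = 0.0412). The transcript of a processed copy, Ptges3-ps, is identical to Ptges3 over all 480 of its bases, so some reads may be exchanged between the 2 genes. It was counted at 33.8 ± 12.1 in bone marrow and 16.8 ± 9.37 in small intestine.

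Both brakes on the receptor were higher in small intestine. Tiparp (chr3:65528410-65555518, plus strand) was already present in bone marrow, at normalised counts of 321, 322, 269 and 318 in BM_1, BM_3, BM_4 and BM_5. It reached 8701, 12983, 9006 and 8480 in SI_6, SI_7, SI_10 and SI_11, and the highest value, that of SI_7, stood apart from the other 3. The 31.8-fold difference of the means corresponded to 4.96 ± 0.21 on the log2 scale (limma adjusted p = 1.34e-06). A gene on the opposite strand, 4931440P22Rik, overlaps the start of Tiparp and had means of 21.6 and 320.6 normalised counts, so reads from the shared stretch cannot be assigned without strand.

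Ahrr (chr13:74211118-74292331, minus strand) was close to absent in 3 of the 4 bone marrow libraries. Its normalised count was 0 in BM_1, 2.6 in BM_3, 1.9 in BM_4 and 21.4 in BM_5, and 1277, 1535, 808 and 1292 in SI_6, SI_7, SI_10 and SI_11. Of its 29 bone marrow reads, 79.3% came from BM_5. The log2 difference was 7.62 ± 0.69 (limma adjusted p = 6.19e-05). The ratio of the means was 190, and without BM_5 it was 815, so the bone marrow level of Ahrr rests on that library. BM_5 also had more genes with reads (30886) than the other bone marrow libraries (19713 to 24592).

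Among the target enzymes the size of the difference and the abundance were not alike. Cyp1b1 (chr17:79701537-79715061, minus strand), a P450 that oxidises aromatic hydrocarbons and oestrogens, had 0, 0, 2 and 1 reads in BM_1, BM_3, BM_4 and BM_5. In SI_6, SI_7, SI_10 and SI_11 it had 458, 459, 346 and 416 reads. Pooled over libraries, its normalised rate was 818-fold higher in small intestine, with a 95% counting interval of 279 to 3968. The log2 difference was 7.43 ± 0.36 (limma adjusted p = 2.53e-06). The interval is wide because of the 3 bone marrow reads, and it covers counting error only.

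Nqo1 (chr8:107388225-107403206, minus strand), a quinone reductase that both AHR and NRF2 are known to induce, gave the most even bone marrow values of the 4 target enzymes. It had normalised counts of 3.1, 4.6, 3.8 and 3.7 in BM_1, BM_3, BM_4 and BM_5 and of 327, 272, 270 and 382 in SI_6, SI_7, SI_10 and SI_11. The means differed 82.4-fold (5.47 ± 0.20 on the log2 scale, limma adjusted p = 7.16e-07).

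The hepatic and intestinal P450 pair, Cyp1a1 and Cyp1a2, had few reads in any library. Their GENCODE spans lie 4224 bases apart on chromosome 9, Cyp1a1 at chr9:57687928-57703824 (plus strand) and Cyp1a2 at chr9:57676937-57683703 (minus strand). The RefSeq start of Cyp1a1 used for its promoter window (chr9:57697363-57697612) lies inside that span. The starts of the 2 genes are therefore further apart in RefSeq than their spans. Cyp1a1 had 0, 0, 0 and 1 reads in BM_1, BM_3, BM_4 and BM_5, and 3, 3, 17 and 5 reads in SI_6, SI_7, SI_10 and SI_11. It was called higher (2.15 ± 0.43, limma adjusted p = 0.00434), and its pooled rate ratio of 40.9 had a 95% counting interval of 6.76 to 1672. SI_10, which holds 17 of the 28 small intestine reads, had the lowest epithelial sum of the 4 libraries. Over the members, SI_10 had the lowest normalised small intestine count for Ahrr, Ptges3, Cyp1b1 and Nqo1. The lowest was SI_6 for Ahr, Arnt and Cyp1a1, and SI_11 for Tiparp and Cyp1a2. The part of epithelial transcript in these values was not tested. Cyp1a2 had 5 reads in BM_5 and 0 in the other bone marrow libraries, and 4, 2, 5 and 1 reads in SI_6, SI_7, SI_10 and SI_11. Its groups overlapped, and its log2 difference of 1.23 ± 0.51 was not called (limma adjusted p = 0.0984). Without BM_5 the difference was 1.75 (limma adjusted p = 0.00334). At this depth the presence of Cyp1a2 transcript in either tissue rests on 5 reads from bone marrow and 12 from small intestine.

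**Figure D3:**
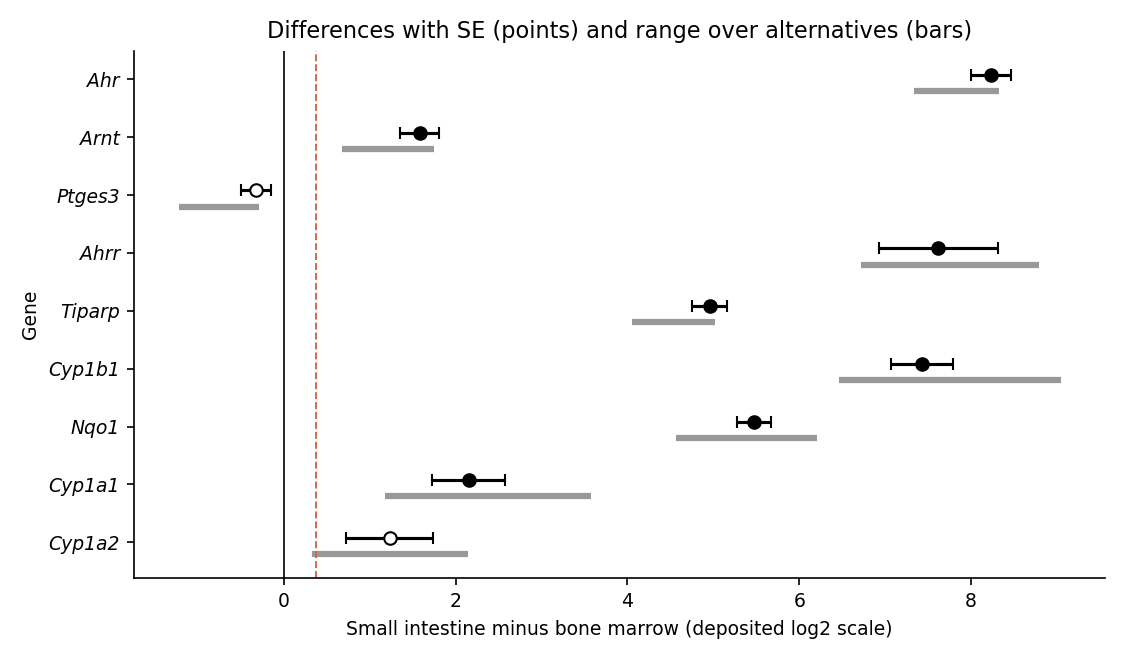
Difference between tissues of each member on the deposited log2 scale (small intestine minus bone marrow). Points are the limma estimates with SE from 4 libraries each (filled, adjusted p under 0.05), grey bars span the values under the alternatives, and the dashed line is the median of all genes at 0.37. Ahr lies at 8.23, and the bars of Arnt and Ptges3 stay on their own side of 0.

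The order of the members changed between the tissues. Levels were set side by side as normalised count per kb of exon. In bone marrow the order was Ptges3 (331 ± 12.1), Arnt (171 ± 20.1), Tiparp (70.6 ± 5.92), Ahr (16.1 ± 3.60) and Nqo1 (2.44 ± 0.396), and the ranges of these 5 did not overlap between neighbours. Ahrr, Cyp1a2, Cyp1b1 and Cyp1a1 followed at 0.686, 0.577, 0.122 and 0.0834 per kb, and their ranges overlapped with each other and, for Ahrr and Cyp1a2, with that of Nqo1. In small intestine Ahr came first (4978 ± 736), before Tiparp (2247 ± 491), Arnt (521 ± 112), Ptges3 (265 ± 34.0), Nqo1 (201 ± 34.2), Ahrr (130 ± 32.2), Cyp1b1 (85.96 ± 18.1), Cyp1a1 (2.87 ± 2.57) and Cyp1a2 (1.71 ± 0.9296). There the neighbours Ptges3 and Nqo1, Ahrr and Cyp1b1, and Cyp1a1 and Cyp1a2 overlapped in range. Among 20623 protein-coding genes, Ahr ranked 9032 per kb in bone marrow and 62 in small intestine. Tiparp moved from rank 5679 to rank 181, whereas Ptges3 ranked 1348 and 1921.

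**Figure D4:**
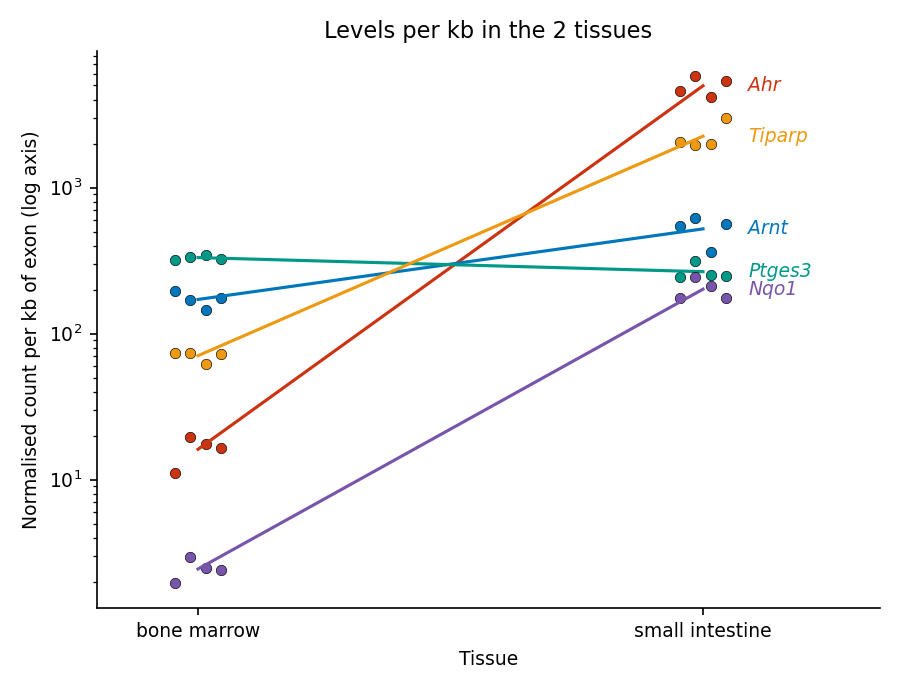
Normalised count per kb of exon (log axis) of the 5 members with reads in every library. Points are single libraries and lines join the means of 4 libraries in each tissue. Ahr passes from below Tiparp, Arnt and Ptges3 in bone marrow to above all of them in small intestine.

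The balance between the receptor and the other members was compared as the difference between deposited log2 values within a library. The deposited scale compresses genes with few reads, so for Nqo1, Ahrr and Cyp1b1 this difference depends on the scale and on the library size, and for the 4 members with reads in every library the plain log2 ratio of normalised counts, which does not depend on library size, was tested as well. Each of 6 members was tested with an exact 2-sided permutation test over the 70 assignments of the libraries, for which the smallest possible p is 0.0286, with Benjamini-Hochberg adjustment over the 6. Per kb, Arnt exceeded Ahr 8.32- to 17.6-fold in the bone marrow libraries, and Ahr exceeded Arnt 8.41- to 11.6-fold in the small intestine libraries. On the deposited scale the log2 ratio of Arnt to Ahr fell by 6.65 (exact permutation p = 0.0286, adjusted p = 0.0429), and the plain ratio fell by 6.70. For the chaperone, Ptges3 exceeded Ahr 17.2- to 29.0-fold in bone marrow and Ahr exceeded Ptges3 16.5- to 21.5-fold in small intestine, and the deposited-scale ratio fell by 8.56 (exact permutation adjusted p = 0.0429).

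Tiparp and Nqo1 rose less than Ahr, and the ratio of each to Ahr was lower in small intestine. Tiparp stood at 3.52 to 6.66 times Ahr per kb in bone marrow and at 0.335 to 0.556 times in small intestine, and its plain log2 ratio fell by 3.31 (-3.28 on the deposited scale, exact permutation adjusted p = 0.0429). Nqo1 stood at 0.140 to 0.178 times and 0.0327 to 0.0505 times Ahr, and its plain log2 ratio fell by 1.92 (exact permutation adjusted p = 0.0286 over the 4 plain ratios). On the deposited scale, which compresses its few bone marrow reads, the Nqo1 ratio fell by 2.76 (exact permutation adjusted p = 0.0429). For Ahrr and Cyp1b1 the call depended on the scale. On the deposited scale neither passed, and the log2 ratio of Ahrr to Ahr differed by -0.61 (exact permutation p = 0.600) and that of Cyp1b1 by -0.80 (exact permutation p = 0.0857, adjusted p = 0.103). With log2(normalised count + 5) both passed, at -1.17 for Ahrr and -1.75 for Cyp1b1 (exact permutation adjusted p = 0.0286 each), and Cyp1b1 also passed without BM_3 (-1.09, exact permutation adjusted p = 0.0343). With log2(normalised count + 1) the differences were -0.02 and 0.0541, and the Ahrr difference on the deposited scale was 0.0497 without BM_5. Both genes have few bone marrow reads, so no direction is given for these ratios.

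Across the 8 libraries the protein-coding genes with the pattern most like that of Ahr were Slc7a11, Adam19, Adam8, Dusp16 and Il1rn. Likeness was the root-mean-square distance between centred deposited values over 19342 coding genes, and it was 0.225, 0.233, 0.237, 0.262 and 0.270 for the 5 genes. Slc7a11, the cystine transporter subunit, went from 80.4 ± 18.1 to 25555 ± 3019 normalised counts. Il1rn, the interleukin-1 receptor antagonist, went from 90.2 ± 17.4 to 29504 ± 4921. No other member of the pathway was among these 5. The distance depends mostly on the size of the rise, which was 8.17 to 8.39 for the 5. The largest rise of another member was 7.62 (Ahrr), so their absence says nothing on likeness between libraries.

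The genes around the pathway were called in both directions, as were genes at large. In the fit of the deposited values, 22.0% of all genes were called higher and 12.9% lower. Among genes of at least 10 mean reads, tested alone, 39.2% were called higher and 33.7% lower. Of the 5 genes of the cytosolic AHR complex, 1 was called higher, 2 lower and 2 neither, with a median difference of -0.33 against 0.37 over all genes. Counts of calls in the lists depended on the scaling, and those with each library centred on its median over all genes are given beside them. Over all genes that centring called 11.2% higher and 26.6% lower. For the cytosolic complex they were 1 higher and 3 lower. All 5 genes of the complex had at least 10 mean reads, and nothing is read from this count. Both HSP90 genes fell, Hsp90ab1 by 1.49 on the log2 scale (from 19384 ± 1001 to 7040 ± 1680 normalised counts) and Hsp90aa1 by 1.16. Src, the kinase of the complex, rose by 2.97, but it had only 7 reads over the bone marrow libraries and 97 over the others.

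Among the 19 bHLH-PAS factors and their coactivators, 12 were called higher and 7 did not pass, with a median of 1.42 (7 higher and 1 lower with median centring). The 12 called include the members Ahr, Ahrr and Arnt, which were already counted above. Of the 19, 12 had at least 10 mean reads, the class of which 39.2% were called higher when tested alone. Nothing is read from this count. Ahr and Ahrr had the largest differences of this list. Of the 3 oxygen-sensing partners of ARNT, 2 were called higher, Hif1a with 1074 ± 71.9 against 10980 ± 2615 normalised counts (3.31 ± 0.23) and Epas1 with 4.57 ± 4.27 against 384 ± 102 (5.96 ± 0.56). The third, Hif3a, had 36.6 ± 7.29 and 20.95 ± 18.1 (-1.02 ± 0.52, limma adjusted p = 0.173). In small intestine Hif1a stood at 1862 per kb, between Tiparp and Arnt. The coactivator Ncoa3 rose by 2.26. Of 14 coregulators and degradation factors of AHR, 4 were called higher and 3 lower, with a median of 0.04 (1 higher and 5 lower with median centring). All 14 had at least 10 mean reads, the class of which 39.2% were called higher and 33.7% lower when tested alone, so nothing is read from this count. The ubiquitin ligase adaptor Ddb1 fell by 1.62. Ncor1 (0.02 ± 0.17) and Ep300 (0.06 ± 0.17) were not called.

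Of 9 further AHR-inducible genes, 4 were called higher and 5 did not pass, with a median of 1.45 (3 higher and 1 lower with median centring). Over all genes, 22.0% were called higher and 12.9% lower (11.2% and 26.6% with median centring). Of the 9, 6 had at least 10 mean reads, the class of which 39.2% were called higher and 33.7% lower when tested alone. Nothing is read from this count. Serpinb2, a plasminogen activator inhibitor, went from 27.5 ± 19.4 to 20650 ± 4175 normalised counts (9.53 ± 0.40, limma adjusted p = 1.34e-06). Nfe2l2, which encodes NRF2, went from 2880 ± 104 to 6493 ± 859 (1.16 ± 0.18). The other 2 called, Cyp2s1 and Gsta1, are also enzymes of epithelium, and Gsta1 had 208 reads over the small intestine libraries and 0 over the others. Of 4 electron donors of the P450 enzymes, Por, the P450 reductase, rose by 1.77 and Cyb5r3 by 1.29, and the other 2 were not called. With median centring both lost their calls and 1 of the others was called lower.

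Nqo1 is shared with the NRF2 programme, of which 15 genes were listed. Of these, 7 were called higher, 6 lower and 2 neither, with a median of 0.42 (5 higher and 7 lower with median centring). All 15 had at least 10 mean reads, the class of which 39.2% were called higher and 33.7% lower when tested alone. Nothing is read from this count. Slc7a11 (8.26), the NRF2-responsive Osgin1 (5.80) and Srxn1, sulfiredoxin (4.53), rose. G6pdx, the first enzyme of the pentose phosphate pathway, fell by 2.22. Keap1, the NRF2 inhibitor, fell by 2.15, and Gclm, a subunit of glutamate-cysteine ligase, fell by 1.73. Gsr, glutathione reductase, had the highest level per kb and rose by 0.77, but its difference was -0.13 with median centring and -0.16 with quantile normalisation. Outside the rule for named genes, Epas1, Hif3a, Ddb1, Cyp2s1, Gsta1, Osgin1, Srxn1, Keap1 and Gclm were chosen after their values were seen.

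**Figure D5:**
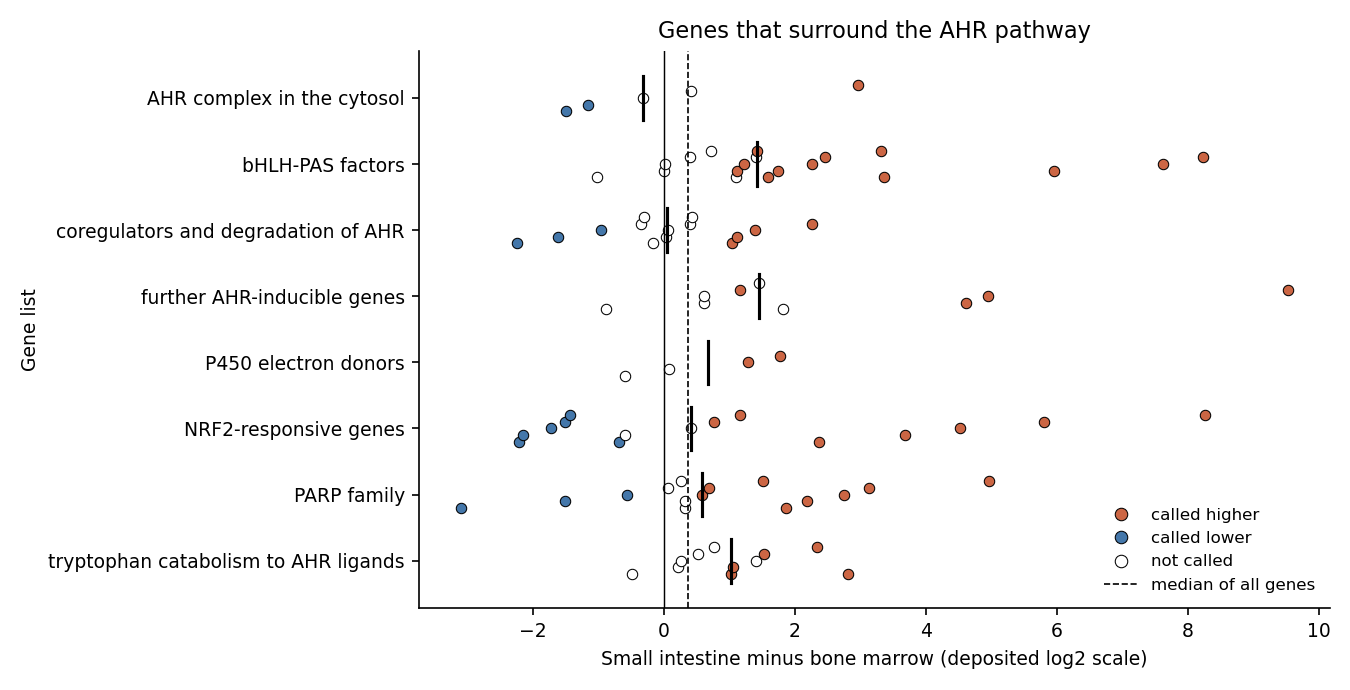
Differences between tissues (small intestine minus bone marrow, deposited log2 scale) of the genes in 8 lists around the pathway. Each point is a gene, coloured by its limma call, black bars are list medians and the dashed line is the median of all genes. The AHR complex lies mostly below 0, and the NRF2-responsive genes spread to both sides.

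Markers of other cells and genes listed for the tissue dissociation response moved with the tissue as well. Over all genes, 22.0% were called higher and 12.9% lower. The 15 genes of the tissue dissociation response, such as Fos and Dusp1, summed to 62752 to 83390 normalised counts in small intestine and 2017 to 2326 in bone marrow, with 13 called higher and 1 lower. The lower gene was Dnajb1 (-0.76), and Hsph1 (-0.37) was not called. The paper names the AP-1 family, to which Fos belongs, among transcription factors raised in small intestine. Handling and tissue cannot be told apart in these genes. Of 11 macrophage and dendritic markers 8 were called higher, with sums of 2450 to 7630 against 615 to 805, and all 8 fibroblast and endothelial markers were called higher (7929 to 9796 against 387 to 476), mostly through Pecam1. The 9 lymphoid and innate lymphoid markers, 2 higher and 2 lower, had like sums in both tissues (109 to 202 in small intestine, 127 to 211 in bone marrow). The 12 neutrophil precursor markers were all called lower, as were 6 of 7 erythroid and 4 of 6 mast cell and basophil markers. The part of any of these in the differences of the AHR pathway was not tested.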

How the data were processed

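RNA from 4 bone marrow and 4 small intestine libraries was amplified as cDNA and sequenced as single-end reads. Per the study's methods the authors used nf-core/rnaseq with GRCm38 (Ensembl) and DESeq2 in R 4.0.3. The deposited values are log2-like, variance-stabilised by DESeq2 on all libraries, and compress differences of genes with few reads. The columns name the tissue but could not be matched to single samples. Inverting the transformation with size factors gave whole reads for 100% of values (tolerance 0.05 reads), and normalised counts are those reads over the size factor. The labels list separate samples, and p-values measure the spread between them.

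Differences were fitted with limma 3.58.1 (R 4.3.3) across the 38392 genes of the deposited table, without filter or covariate, with Benjamini-Hochberg adjustment at 0.05. DESeq2 was not rerun, and the recovered reads were fitted with limma voom as an alternative. Ratios to Ahr used exact permutation tests (scipy 1.17.1). Fold intervals are exact 95% counting intervals. In data simulated from the means and size factors of these libraries (38392 genes), limma called 30%, 88%, 94% and 90% of 50 genes each changed 2-, 4-, 8- and 16-fold. There were 2 false calls among 16108 unchanged genes of at least 10 mean reads and 65 among 22084 others. The simulation gave all genes the same spread setting and changed a far smaller share than the 34.9% called in these data. Its shares therefore do not carry over to the members. Named genes were all members, in each list the called genes with the largest rise and fall and the 2 highest per kb, and the 5 coding genes nearest to Ahr. Members and lists were chosen with earlier results of these data known. Annotation was GENCODE M21, in which all 38392 IDs were found. Alternatives were other scalings, filters, pseudocounts and fits, and leaving out each library. The plain log2 ratio to Ahr was added after seeing the data. Some list genes that the rule names are not reported here.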

Additional observations from a re-analysis of the deposited data

Results flagged for a closer look

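In 30 groups of 4 libraries examined for the members and ratios, a single library stood apart from its group in 6. About 1.5 would be expected for independent, normally spread groups. The groups are not independent, since the ratios share the values of Ahr and of the members. For Cyp1a1 and Cyp1a2 in bone marrow, 3 equal values of 0 fix the result at 1.0. No excess is therefore read from this count. Each value below is the gap of that library to its nearest neighbour as a share of the range of the group, and each exceeds Dixon's 95% limit for 4 libraries. Ptges3 in small intestine (0.842) was set apart by SI_11, the highest of the 4. Tiparp was set apart in bone marrow (0.927) by BM_4, the lowest, and in small intestine (0.859) by SI_7, the highest. Cyp1a1 and Cyp1a2 in bone marrow (1.0 each) had reads in BM_5 and 0 in the other 3 libraries, 1 read for Cyp1a1 and 5 for Cyp1a2. The ratio of Nqo1 to Ahr in bone marrow (0.855) was set apart by BM_1, the highest, in which Ahr had its lowest normalised count of 68.2. No explanation was tested for any of these.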

How the results depend on the processing

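Over 17 results and 238 values under alternatives, 225 kept their direction and their side of the threshold and 2 changed sign. With each library centred on its median over all genes the Arnt difference was 0.68 and that of Ptges3 -1.23, and 1 member was called lower. Ptges3 was also called, and the count was again 1, with only genes of at least 10 mean reads (-0.33) and with limma voom on recovered reads (-0.33). The filter removed Cyp1a1 and Cyp1a2. The ratio of Ahrr to Ahr differed by -1.17 with log2(normalised count + 5), and that of Cyp1b1 by 0.0541 with + 1 and -1.75 with + 5, and both + 5 values passed the test. Leaving out each library in turn, Cyp1a2 ranged from 1.06 to 1.75 (called without BM_5), the Ahrr ratio from -1.01 to 0.0497 (0.0497 without BM_5), the Cyp1b1 ratio from -1.09 (adjusted p = 0.0343 by exact permutation, without BM_3) to -0.58, and the members called higher from 7 to 8. The causes were not tested. The scaling moves all genes: their median difference was 0.37, -0.53 with median centring, -0.03 with quantile normalisation and 0.89 with voom, and 63.2% of the calls were higher, against 29.5% with median centring and 45.8% with quantile normalisation. No paired analysis was possible because the 2 tissues share no replicate numbers. Depth limits Cyp1a1, Cyp1a2 and the bone marrow levels of Cyp1b1, Ahrr and Nqo1.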

Other observations

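Other families that touch the pathway were measured beside it. Tiparp belongs to the PARP family, of which 8 of 15 listed genes were called higher, 3 lower and 4 neither by limma, with a median difference of 0.59 against 0.37 over all genes (4 higher and 3 lower with each library centred on its median over all genes). All 15 had at least 10 mean reads, the class of which 39.2% were called higher and 33.7% lower when tested alone. Nothing is read from this count. Tiparp had the largest rise of the 15. Parp4, the vault PARP, rose by 1.87 to 2611 ± 263 normalised counts, and Parp12, chosen after its values were seen, by 3.12 to 794 ± 112. Parp1, the DNA damage sensor, fell by 3.10, from 1725 ± 76.6 to 212 ± 98.8.

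Enzymes of tryptophan catabolism, only some of whose products are AHR ligands, stayed low in both tissues. The summed normalised counts of the 11 listed genes were 256 to 379 in bone marrow and 503 to 557 in small intestine. Of the 11, 5 were called higher and 6 did not pass (2 higher and 1 lower with that centring). Over all genes, 22.0% were called higher and 12.9% lower without that centring. Kynu, kynureninase, went from 7.86 ± 9.37 to 52.9 ± 26.6 and Ido1, which opens the kynurenine route and was likewise chosen afterwards, from 2.22 ± 1.67 to 21.1 ± 10.1. Haao had 84.7 ± 28.6 and 171 ± 37.1. Epithelial and macrophage markers were higher in the same libraries, and their part in these values was not tested.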
